A study of Mus musculus with 28 samples.

Results

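The transcripts of 10 genes of the blood clotting cascade were followed in the livers of mice that expressed human APOBEC3B (A3B): the 4 vitamin K-dependent proteases F2, F7, F9 and F10, the contact-phase proteases F11 and F12, the cofactor F5, and the fibrinogen chains Fga, Fgb and Fgg. They were chosen by name, and all 10 had a row in both tables, of 35858 gene symbols in the livers quantified per transcript (set 2) and 24845 in the livers quantified per gene (set 1). Set 2 held 6 A3B livers (mice 44, 48, 49, 125, 137 and 153) and 2 control livers (mice 45 and 168), and set 1 held 3 A3B livers (mice 23, 28 and 70) and 3 control livers (mice 11, 91 and 92). Each liver came from a different mouse. The A3B mice carried the genotype A3B + CAGS-rtTA, in which human APOBEC3B fused to turboGFP sits behind a tetracycline operator in the ColA1 locus and a ubiquitous CAGs promoter drives the rtTA3 activator, so that A3B was induced in many organs and not in hepatocytes alone. Adult mice of 4 weeks received 625 ppm doxycycline in food pellets, for 10 days in the set 2 livers and A3B liver 70 and for 14 days in A3B livers 23 and 28, and A3B tissue was taken once the health of the mice had declined. Control livers carried the genotype A3B without the activator, except control liver 11, which is labelled A3B + CAGS-rtTA. The labels give the controls a treatment time too (10 days in set 2, 15 days in set 1), and the study's methods feed control littermates doxycycline, but other places in the study list control animals as untreated, so whether each control liver saw the drug is unsettled.

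Clotting runs as a chain of plasma proteases, most of which hepatocytes secrete. Factor XII and factor XI (F12, F11) start it on charged surfaces with prekallikrein and kininogen, factor VII (F7) starts it on tissue factor, and both arms meet at factor X (F10), which with its cofactor factor V (F5) cuts prothrombin (F2) into thrombin. Thrombin cuts the soluble hexamer fibrinogen, 2 copies each of the alpha, beta and gamma chains, into fibrin. Prothrombin and factors VII, IX and X bind membranes only after the vitamin K-dependent carboxylase Ggcx has modified them, and in mice as in other mammals the fibrinogen genes are also acute phase genes that respond to interleukin-6.

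The fibrinogen genes form 1 cluster of 42.1 kb on chromosome 3 in GRCm38, with Fgg at chr3:83007724-83015049 (plus strand), Fga at chr3:83026076-83033627 (plus) and Fgb at chr3:83040141-83049863 (minus). F7 (chr8:13026034-13035809, plus) and F10 (chr8:13037308-13056676, plus) are neighbours 1.5 kb apart, and F11 lies elsewhere on the same chromosome at chr8:45241174-45262031 (minus). F2 is at chr2:91625320-91636414 (minus), F5 at chr1:164151838-164220277 (plus), F9 at chrX:59999464-60030759 (plus) and F12 at chr13:55417958-55426793 (minus). Of the 10, F5 overlaps the annotated transcripts Gm16548 (minus strand) and Gm16588 (plus strand, a pseudogene) and Fgg overlaps Gm30097 (minus strand), so reads shared with them may have been split.

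Since the fibrinogen genes are acute phase genes, and F5, F7 and F11 are the genes called lower below, the 150 bases before their starts are shown, from the RefSeq promoter table (GRCm38.p6), 5′ to 3′ on the strand of the gene. Capitals mark matches, on either strand, to the letters GTTAAT (part of the HNF1 site), TTGCNNAA (C/EBP), CAAAGNNCA (HNF4), CTGGGAA (the type II interleukin-6 response element) and TTCNNNGAA (STAT). The Fga stretch ends 77 bases before the RefSeq start, where the GENCODE gene model begins.
Fga (chr3:83025926-83026075, plus strand): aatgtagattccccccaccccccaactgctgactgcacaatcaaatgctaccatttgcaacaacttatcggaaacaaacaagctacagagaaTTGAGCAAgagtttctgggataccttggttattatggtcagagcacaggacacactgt
Fgb (chr3:83049864-83050013, minus strand): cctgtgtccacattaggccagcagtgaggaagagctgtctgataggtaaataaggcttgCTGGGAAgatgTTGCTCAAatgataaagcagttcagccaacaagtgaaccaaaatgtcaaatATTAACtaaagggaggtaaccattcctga
Fgg (chr3:83007574-83007723, plus strand): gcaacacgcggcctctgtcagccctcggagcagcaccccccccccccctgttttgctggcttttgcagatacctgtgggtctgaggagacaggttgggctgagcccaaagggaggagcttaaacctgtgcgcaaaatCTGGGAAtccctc
F5 (chr1:164151685-164151834, plus strand): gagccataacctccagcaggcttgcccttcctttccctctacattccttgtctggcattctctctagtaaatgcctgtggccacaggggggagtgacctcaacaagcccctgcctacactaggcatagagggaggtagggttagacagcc
F7 (chr8:13025884-13026033, plus strand): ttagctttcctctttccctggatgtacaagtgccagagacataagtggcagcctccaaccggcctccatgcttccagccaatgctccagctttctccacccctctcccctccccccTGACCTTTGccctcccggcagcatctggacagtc
F11 (chr8:45262032-45262181, minus strand): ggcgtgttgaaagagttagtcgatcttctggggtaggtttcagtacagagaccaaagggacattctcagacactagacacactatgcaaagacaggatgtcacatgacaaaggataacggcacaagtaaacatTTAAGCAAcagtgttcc
Within the 250 bases before the start, the CTGGGAA letters were found in Fgb, Fgg and F9, and in 9.10% of the 32851 promoters of the table. The HNF1 letters were found in Fga and Fgb (6.43% of all promoters), at 43 to 38 and 29 to 24 bases before their RefSeq starts. The C/EBP letters were found in Fga, Fgb, F9 and F11 (9.56%), the HNF4 letters in Fga, F7 and F9 (5.49%) and the STAT letters in Fga, Fgb and F9 (7.02%), where in F9 they share bases with the CTGGGAA match. F2, F5, F10 and F12 held none of these 5 sets of letters in the window. A match of letters says nothing on whether a factor binds there.

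Depth and sample checks were as follows. Set 2 livers held 65161064 to 118976013 estimated counts, highest in the 2 controls, and the depth of set 1 is unknown because it holds TPM, each transcript's share of the library per length. The transgene row of set 1 stood at 705 to 1705 TPM in A3B livers and at 0.0929 to 0.145 TPM in the 3 controls, control liver 11 included. Mitochondrial transcripts took 29.6% of the TPM in A3B liver 48 and 15.7% in A3B liver 49, against 5.11% to 8.80% in the other 6 livers of set 2, so set 2 results are also given without those 2. Of the 14 hepatocyte markers measured, the summed TPM was below every control in every A3B liver of both sets (59048 to 119100 against 131800 and 193590 in set 2, 5621 to 11221 against 14464 to 17167 in set 1). That sum is weighted to the most abundant markers, such as Alb. By the mean log2(TPM + 1) of the same 14, the groups of set 2 overlapped. A3B livers 125, 137 and 153 (11.34, 11.40 and 11.65) lay above control liver 168 (11.24). In bulk liver, fewer hepatocytes and less of a transcript in each hepatocyte cannot be told apart.

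F5, F11 and F7 transcripts were lower in A3B livers over both sets, as were 5 of the 14 hepatocyte markers, and the fibrinogen chains were not shown to change. In set 2, 2 of the 10 transcripts fell, F5 and F11, and none rose at an adjusted p under 0.05 (edgeR quasi-likelihood test, Benjamini-Hochberg over 17365 genes). The same test called 2.41% of all genes lower and 1.26% higher. In set 1 limma called none of the 10, with 3 of them (F5, F7 and F11) at an unadjusted p under 0.05, as were 3755 of all 11507 genes. At an adjusted p under 0.05 it called 1.86% of genes lower and 6.07% higher. Over both sets, with the set as a covariate, F5, F7 and F11 fell and none rose, and the same limma fit called 8.42% of 10148 genes lower and 30.6% higher. The median difference of the 10 was -0.82 in set 2, -0.75 in set 1 and -0.70 over both sets on the log2 scale, against medians of 0.21, 0.39 and 0.38 over all genes tested.

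**Figure D1:**
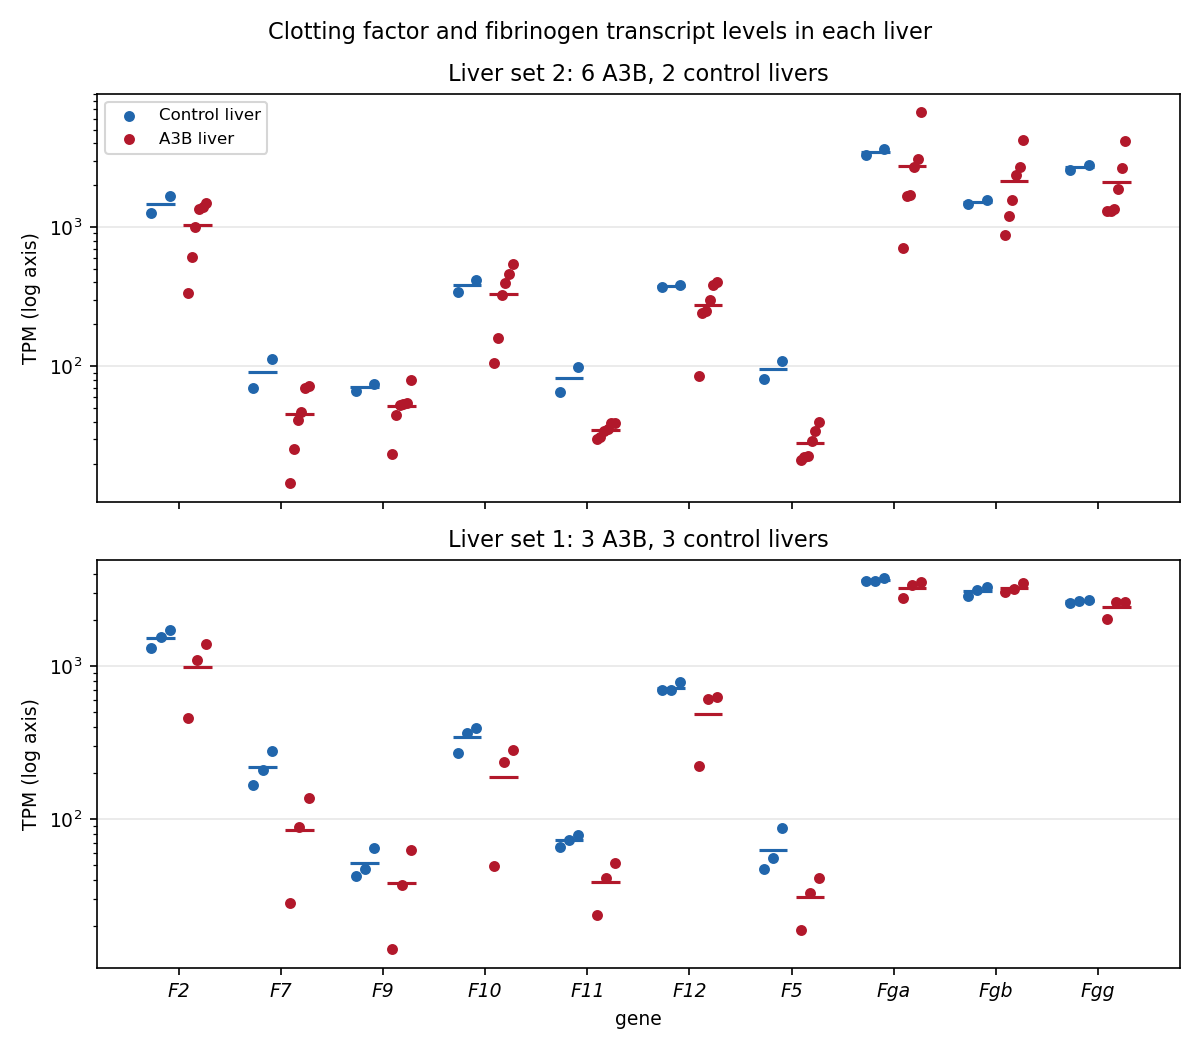
TPM of the 10 transcripts in each liver on a log axis, control livers in blue and A3B livers in red, with set 2 above and set 1 below and bars at the group means. F5 and F11 are the transcripts whose A3B and control livers do not overlap in either set, and Fga, Fgb and Fgg overlap in set 2.

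F5 encodes factor V, the cofactor that speeds the cleavage of prothrombin by factor Xa. In set 2 its level was 108 TPM in control liver 45 and 81.6 TPM in control liver 168, and it ran from 21.3 through a median of 26.0 to 39.8 TPM in the 6 A3B livers. In set 1 it was 87.0, 47.1 and 55.3 TPM in control livers 11, 91 and 92 and 32.8, 18.7 and 41.0 TPM in A3B livers 23, 28 and 70. The groups did not overlap in either set, and the 9 A3B livers held a median of 30.8% of the control mean of their set. The log2 fold change in set 2 was -2.11 (SE 0.31, adjusted p = 0.0100, edgeR). Over both sets the difference was -1.38 on the log2(TPM + 1) scale (SE 0.26, 95% interval -1.93 to -0.84, adjusted p = 0.000889, limma). An exact permutation test with labels exchanged within each set gave p = 0.00179 for F5 (two-sided, 9 against 5 livers), the smallest that it allows.

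F11 encodes factor XI, which activates factor IX. Its levels in set 2 were 98.9 and 64.9 TPM in control livers 45 and 168 and ran from 30.1 through a median of 34.7 to 39.3 TPM in the 6 A3B livers. In set 1 they were 65.7, 78.7 and 73.2 TPM in control livers 11, 91 and 92 and 23.5, 51.6 and 41.0 TPM in A3B livers 23, 28 and 70. By TPM, the coefficient of variation of F11 among the 6 A3B livers of set 2 was 11.2%, the lowest of the 10 transcripts there (26.6% to 76.4% for the other 9). This narrow range belongs to the TPM scale, since in TMM-scaled CPM F11 ran from 34.5 to 71.6 in these livers. In set 1 the coefficient of variation of F11 was 36.7% among 3 A3B livers, above the 6.47% to 14.4% of the fibrinogen chains. The log2 fold change was -1.59 in set 2 (SE 0.29, adjusted p = 0.0229, edgeR) and -1.07 over both sets (SE 0.21, 95% interval -1.51 to -0.63, adjusted p = 0.00113, limma). The exact permutation test gave F11 p = 0.00179 (two-sided), again the smallest it allows.

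F7 encodes the protease that binds tissue factor. Its levels in set 2 were 113 and 70.2 TPM in control livers 45 and 168, and 14.5 to 72.5 TPM with a median of 44.1 in the A3B livers, so that A3B liver 153 lay just above control liver 168. In set 1 they were 167, 209 and 279 TPM in control livers 11, 91 and 92 and 88.5, 28.3 and 138 TPM in A3B livers 23, 28 and 70, with no overlap. The difference did not pass the test in set 2 (log2 fold change -1.36, SE 0.51, adjusted p = 0.151, edgeR) or in set 1 (-1.59, SE 0.57, adjusted p = 0.109, limma). Over both sets F7 fell by 1.37 on the log2(TPM + 1) scale (SE 0.41, 95% interval -2.25 to -0.50, adjusted p = 0.0165, limma), with an exact permutation p of 0.0107 (two-sided). This call was lost without control liver 45 (adjusted p = 0.0513).

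The set 2 calls rested on the 2 controls. Without control liver 45 the adjusted p was 0.0810 for F5 and 0.184 for F11, and without control liver 168 it was 0.0667 and 0.122, at log2 fold changes of -2.11 and -1.51 and of -2.27 and -1.83. With 1 control left, its spread is assumed to be that of the A3B livers. F11 also lost its call without A3B liver 137 (-1.59, adjusted p = 0.0608). With A3B livers 48 and 49 left out together, F5 (-2.09, adjusted p = 0.00519) and F11 (-1.81, adjusted p = 0.00440) kept their calls in edgeR and F9 was also called (-0.94, adjusted p = 0.0209). Over both sets without those 2 livers F5, F7 and F11 were called as before.

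**Figure D2:**
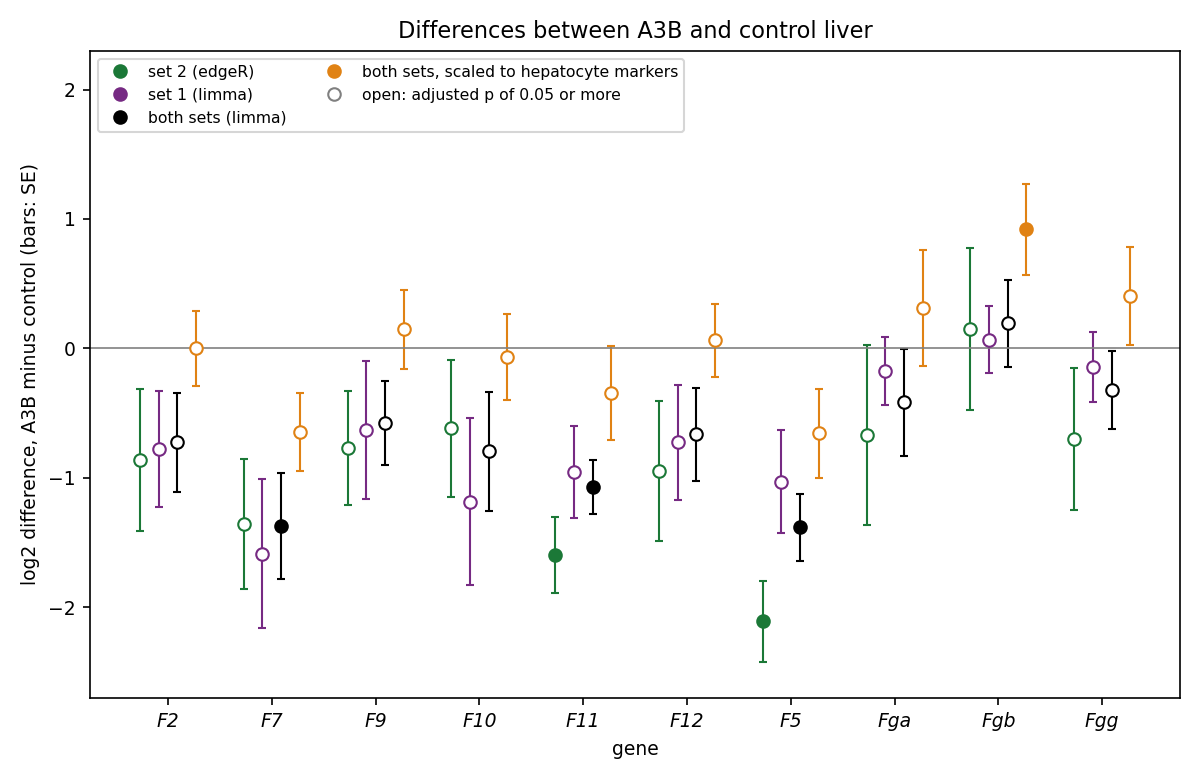
Log2 difference between A3B and control liver for the 10 transcripts in set 2, in set 1, over both sets, and over both sets after each liver is scaled to its hepatocyte markers, with bars of 1 standard error and filled points at an adjusted p under 0.05. F5 and F11 are filled in set 2 and F5, F7 and F11 over both sets, and after the scaling only Fgb is filled, on the higher side.

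Counted by TPM with no overlap between groups, every A3B liver lay below every control for F5 and F11 in set 2, where 5.42% of all genes tested did the same, and for F5, F7, F11, F12 and Fga in set 1, where 10.3% did. With TMM-scaled CPM in place of TPM, the set 2 transcripts without overlap were F2, F5, F7, F11 and F12, and the share of all genes tested rose to 12.8%.

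The other vitamin K-dependent proteases and F12 had negative differences in both sets that did not pass the tests. F2, which encodes prothrombin, was the most abundant protease, at 1686 and 1266 TPM in control livers 45 and 168 and 336 to 1498 TPM in the A3B livers of set 2, and over both sets its difference was -0.73 (SE 0.38, 95% interval -1.53 to 0.08, adjusted p = 0.137, limma). F10 stood at 420 and 342 TPM in the set 2 controls and at 105 to 546 TPM in the A3B livers, with 3 A3B livers at or above 396 TPM, and its difference over both sets was -0.80 (95% interval -1.77 to 0.18, adjusted p = 0.181, limma). F10 and its upstream neighbour F7 both overlapped between the groups of set 2, and F10 was below its set's control mean in 6 of the 9 A3B livers and F7 in all 9, with no test of the difference between them. F12 was at 385 and 374 TPM in the set 2 controls and at 85.1 to 402 TPM in A3B livers, with a difference of -0.66 over both sets (95% interval -1.43 to 0.10, adjusted p = 0.151, limma). F9 encodes the protease missing in haemophilia B, and it had the lowest level of the 10 in both groups of controls, at 74.2 and 66.8 TPM in set 2. Its A3B livers ran from 23.4 to 79.1 TPM, the highest being A3B liver 48, and the difference over both sets was -0.58 (95% interval -1.27 to 0.11, adjusted p = 0.168, limma). These intervals include both no change and falls of more than 1 log2 unit.

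The lowest values came from particular livers. In set 2, A3B liver 49 held the lowest level of 7 of the 10 transcripts (F2, F7, F9, F10, F12 and also Fgb and Fgg, at 882 and 1306 TPM), and in set 1 A3B liver 28 held the lowest of 6 (F2, F5, F7, F9, F10 and F12). In A3B liver 28, F7 was at 12.95% and F10 at 14.3% of the control mean, whereas its Fga, Fgb and Fgg levels of 3525, 3473 and 2641 TPM lay close to those of the controls (3572 to 3751, 2865 to 3273 and 2586 to 2707 TPM). F11 did not follow this order, since A3B liver 28 was the highest of the 3 A3B livers for F11. Fibrinogen therefore made up 92.0% of the summed TPM of the 10 transcripts in A3B liver 28, against 74.4% to 77.3% in the set 1 controls. A3B liver 28 also held the least transgene RNA of the 3 (705 TPM) and the lowest summed hepatocyte markers (5621 TPM), and their part in its low values was not tested.

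**Figure D3:**
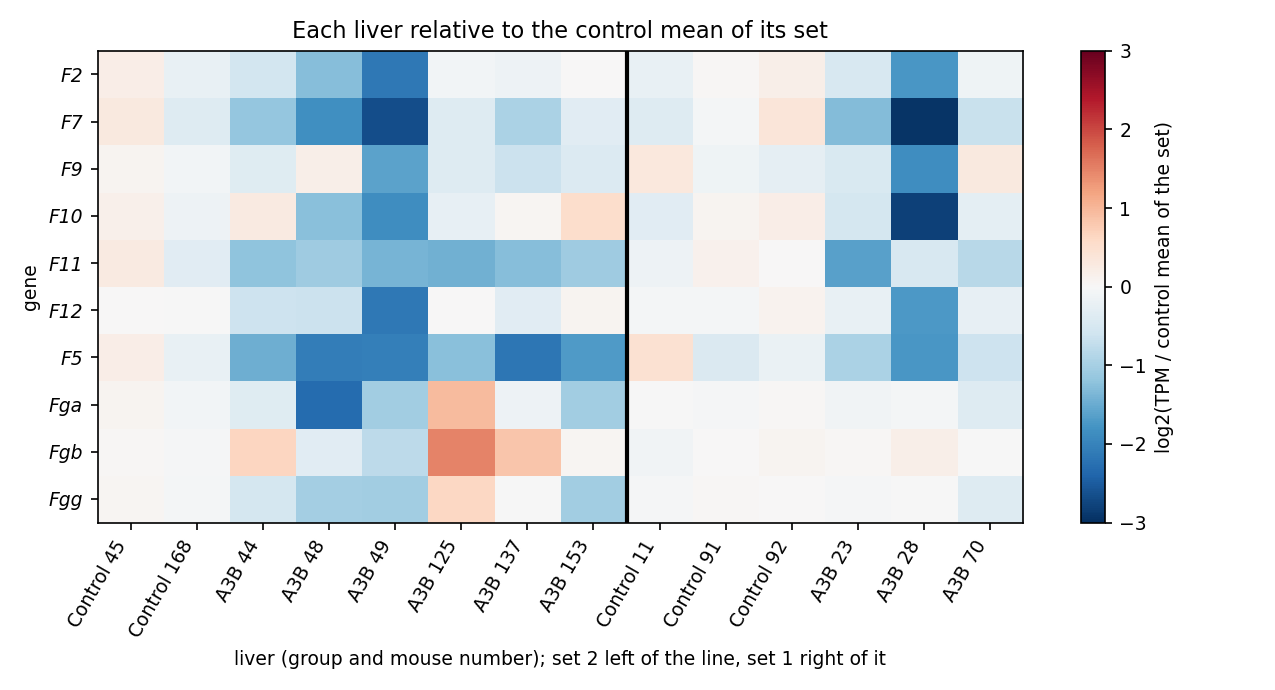
Level of each transcript in each of the 14 livers as log2 of the ratio to the control mean of the same set, with set 2 left of the line and blue for lower. F5 and F11 are blue in all 9 A3B livers, the other proteases are bluest in A3B livers 49 and 28, and Fgb is red in A3B liver 125 at 279% of the control mean.

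Fibrinogen transcripts dominated the 10, with fibrinogen making up 73.5% and 76.4% of their summed TPM in the set 2 controls. Fga levels were 3663 and 3274 TPM in control livers 45 and 168 and ran from 702 (A3B liver 48) through a median of 2187 to 6704 TPM (A3B liver 125). Fgb levels were 1552 and 1469 TPM in these controls and ran from 882 through 1971 to 4222 TPM in A3B livers, and Fgg levels were 2806 and 2591 TPM and ran from 1306 through 1604 to 4151 TPM. A3B liver 125 was the highest and the only A3B liver above both controls for Fga. None of the 3 chains was called in any of the fits above. Over both sets the difference was -0.42 for Fga (95% interval -1.29 to 0.45, adjusted p = 0.435), 0.19 for Fgb (-0.52 to 0.90, adjusted p = 0.670) and -0.32 for Fgg (-0.96 to 0.32, adjusted p = 0.413), all by limma. In set 1 the intervals were narrower, at -0.79 to 0.44 for Fga, -0.54 to 0.68 for Fgb and -0.77 to 0.49 for Fgg. The small positive value of Fgb in set 2 (0.15, edgeR with TMM) rested on A3B liver 125, without which it was -0.28, and also turned negative without control liver 45 (-0.02). It depends on the scaling, since with counts scaled by their totals it was 0.54 (adjusted p = 0.525, edgeR). By TPM, A3B livers 44, 125, 137 and 153 lay above both controls for Fgb, and A3B livers 48 and 49 below both.

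The balance of the chains is given as a description, without a test. The ratio of Fga to Fgb TPM was 2.36 and 2.23 in the set 2 controls and 0.588 to 1.91 in the A3B livers. In set 1 it was 1.14 to 1.26 in controls and 0.917 to 1.06 in A3B livers. The groups did not overlap in either set, although the 2 sets put the controls at different ratios. How often the ratios of other gene pairs separate the groups as fully was not counted. The other ratios separated the groups less, as Fga to Fgg overlapped in both sets (1.31 and 1.26 in set 2 controls against 0.525 to 1.62, and 1.32 to 1.41 in set 1 controls against 1.30 to 1.39), and Fgb to Fgg overlapped in set 1 (1.11 to 1.23 against 1.23 to 1.51) but not in set 2 (0.553 and 0.567 against 0.675 to 1.27). Fgb took 19.4% and 20.03% of the fibrinogen TPM in the set 2 controls and 22.8% to 36.9% in the A3B livers, and in set 1 it took 31.6% to 33.8% and 34.7% to 38.8%. The chains are assembled in equal numbers, but a ratio of TPM is not one of proteins.

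In set 2, which is resolved by transcript, the proportion of the 2 annotated Fga transcripts differed between groups. The 5-exon transcript (2083 bases) encodes the common alpha chain, and the 6-exon transcript (2587 bases) carries the additional last exon of the extended alpha-E chain. The 6-exon transcript made up 3.52% and 2.36% of Fga TPM in control livers 45 and 168 and 8.06% to 9.83% in 5 A3B livers, with 26.5% in A3B liver 48. All 6 A3B livers lay above both controls, with no test of the share. The same held for the 478-base F12 transcript (1.06% to 58.7% of F12 TPM against 0.910% and 0.664%), and, over all genes, for 7.96% of the 50681 transcript shares that averaged 1% or more. Transcripts annotated as retained introns likewise took more of the counts in every A3B liver (1.60% to 3.56%) than in the controls (1.22% and 1.31%), and their part in this share was not tested. The 9-exon Fgg transcript (1741 bases) made up 10.1% and 8.22% of Fgg TPM in the controls and 3.69% to 9.22% in the A3B livers, with A3B liver 48 inside the control range. Tested per transcript with edgeR, the 5-exon Fga transcript (log2 fold change -1.08, adjusted p = 0.531) and the 6-exon one (0.84, adjusted p = 0.588) did not pass. The single F5 transcript passed (-2.34, adjusted p = 0.0357) and the 15-exon F11 transcript, the more abundant of 2, did not (-1.81, adjusted p = 0.0933).

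**Figure D4:**
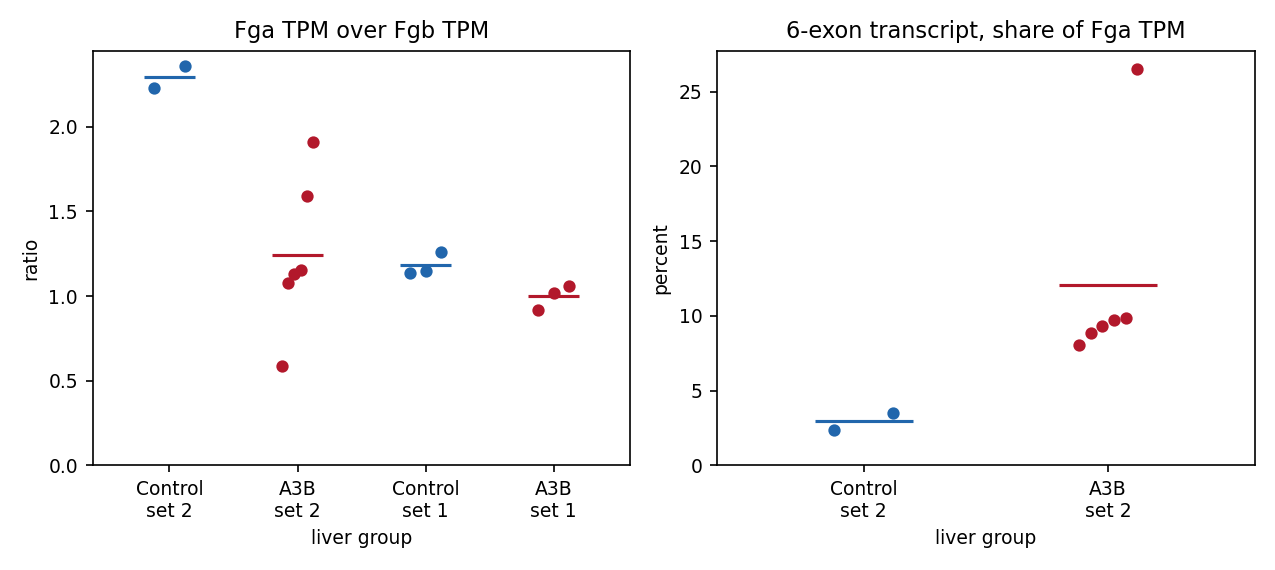
Left, ratio of Fga to Fgb TPM in each liver of the 4 groups, and right, share of Fga TPM assigned to the 6-exon transcript in the set 2 livers, with bars at the group means. The ratios of A3B livers lie below those of the controls of the same set, and the shares of the 6-exon transcript lie above 8% in A3B livers and below 4% in controls.

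The calls for F5, F7 and F11 were lost when the livers were set to equal hepatocyte marker levels. Of the 14 hepatocyte markers measured, 13 had a negative difference over both sets and 5 were called lower (Alb, Ttr, Ambp, Fabp1 and Cyp2e1), with a median of -0.70, the same as the median of the 10 clotting transcripts. When each liver was scaled to the mean log2(TPM + 1) of these 14 markers, an alternative chosen after seeing the data, none of the 10 was called lower. F5 then differed by -0.66 (SE 0.34, adjusted p = 0.0988), F7 by -0.65 (SE 0.30, adjusted p = 0.0674) and F11 by -0.35 (SE 0.36, adjusted p = 0.406), by limma over both sets. On this scale F2 differed by less than 0.01, F10 by -0.07, F9 by 0.15 and F12 by 0.06. The fibrinogen chains had positive values, 0.31 for Fga, 0.41 for Fgg and 0.92 for Fgb (SE 0.35, adjusted p = 0.0319), which was called higher. The same scaling moved the median of all genes to 1.11 and called 5945 of 10148 genes higher and 231 lower, so a higher call on it is common. It added 0.73 to the difference of every gene in the joint fit, and centring added -0.42 to each, which turned the value of Fgb to -0.23, so neither scaling moves genes relative to each other. Centring each liver on its median instead split the calls over all genes into 1842 lower and 1409 higher, in place of 854 and 3107, and called 6 of the 10 lower, adding F2 (-1.15, adjusted p = 0.0343), F9 (-1.003, adjusted p = 0.0395) and F12 (-1.09, adjusted p = 0.0409). In set 1 centring split all genes into 458 lower and 271 higher in place of 214 and 699, and in set 2 scaling counts by their totals gave 241 lower and 879 higher in place of 418 and 218, with none of the 10 called in the former and F5 and F11 in the latter.

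Markers of other liver and blood cells moved in both directions. The summed Kupffer cell and macrophage markers ran from 30.1 to 1066 TPM in the A3B livers of set 2 against 321 and 332 TPM in controls, and neutrophil markers from 5.504 to 119.5 TPM against 2.97 and 4.99 TPM. In set 1 the neutrophil sums overlapped (11.9 to 117 TPM against 9.51 to 21.9 TPM), with Ly6g lower in every A3B liver (2.85 to 5.66 against 7.58 to 14.8 TPM, adjusted p = 0.0716, limma). In set 2 Ly6g went the other way at very low levels (0.0405 to 0.289 TPM in A3B livers against 0 and 0.0159 TPM). S100a8 and S100a9, the 2 of 6 neutrophil markers that could be tested over both sets, were called higher. Centred on the median of each liver, S100a8 and S100a9 kept positive differences (1.66 and 1.75) but lost their calls (adjusted p = 0.0941 and 0.0673, limma). Of the 6 platelet and megakaryocyte markers 2 could be tested over both sets. Pf4 was called higher, and Itga2b had a negative difference that was not called. Centred on the median of each liver, Pf4 stayed higher (1.14, adjusted p = 0.0284, limma) and Itga2b was called lower (-0.69, adjusted p = 0.0265, limma). Clec4g of the endothelial list and Reln and Col3a1 of the stellate list were lower, calls lost with hepatocyte scaling (adjusted p = 0.141, 0.333 and 0.260), and Lyve1 was higher. Of the 8 Kupffer cell and macrophage markers, Marco was called higher in set 1 (1.58, adjusted p = 0.0385), while 6 had negative differences there that did not pass (median of the list -1.28). Of the 7 pancreatic acinar markers, Cela1 was the only 1 tested over both sets and was lower (-2.88, adjusted p = 3.55e-05, limma), but the summed acinar markers of set 2 were above both controls (106 and 78.0 TPM) in A3B livers 44 (249 TPM) and 153 (515 TPM) and at 6.36 to 19.0 TPM in the other 4. Most of the control sums was Cela1 (64.0 and 78.0 TPM, against 4.88 to 19.9 TPM in A3B livers). Ctrb1 reached 371 TPM in A3B livers and 18.8 TPM in controls. The part of these cell markers in the results for the clotting transcripts was not tested.

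No transcript was shown to respond differently in the 2 sets. The difference of the A3B effect (set 2 minus set 1) passed for 0 of 10148 genes in limma (0% of genes, with 234 at an unadjusted p under 0.05), with an adjusted p of 0.9998 for each of the 10. It was -0.71 for F5 (95% interval -1.77 to 0.36), 0.43 for F7 (-1.38 to 2.24) and -0.23 for F11 (-1.14 to 0.67), so the intervals of these genes include differences of over 1 log2 unit.

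Among the partners of these factors, 2 genes of the contact phase and 2 of the vitamin K cycle fell over both sets. The fit over both sets called 8.42% of all genes lower and 30.6% higher. Of the 3 contact system genes, Klkb1 (prekallikrein, -2.26, SE 0.57, adjusted p = 0.00659) and Kng1 (kininogen, -1.35, SE 0.30, adjusted p = 0.00294) fell over both sets and Kng2 (-0.54) did not pass, by limma. Of the 5 genes of the vitamin K cycle and of factor secretion, Ggcx, the carboxylase that F2, F7, F9 and F10 need, fell in set 2 (log2 fold change -1.77, SE 0.26, adjusted p = 0.0100, edgeR) and over both sets (-1.27, SE 0.27, adjusted p = 0.00205, limma), from means of 17.4 to 8.53 TPM in set 2 and of 48.7 to 15.9 TPM in set 1. Vkorc1, the epoxide reductase that warfarin blocks, fell over both sets (-1.09, adjusted p = 0.0146), whereas its paralog Vkorc1l1 rose (0.78, adjusted p = 0.00610), and Lman1 and Mcfd2, the receptor pair that exports factor V and factor VIII, did not pass. Scaled to hepatocyte markers, Klkb1 remained lower (-1.53, adjusted p = 0.00656) and Kng1, Ggcx and Vkorc1 lost their calls (adjusted p = 0.0755, 0.172 and 0.303), and centred on the median of each liver Vkorc1l1 was no longer called (0.36, adjusted p = 0.0964).

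Inhibitors of clotting were also among the genes that fell. Of 11 anticoagulant genes, 9 could be tested over both sets, of which 3 fell and 1 rose. In that fit 8.42% of all genes were called lower and 30.6% higher. Proz (protein Z, a cofactor of factor X inhibition) fell by 1.80 (adjusted p = 0.0123), Serping1 (C1 inhibitor, which blocks factor XIIa and kallikrein) by 1.40 (adjusted p = 0.00911) and Proc (protein C, which inactivates factors Va and VIIIa) by 1.02 on the log2(TPM + 1) scale (adjusted p = 0.0399), by limma. Thbd, the endothelial thrombin receptor thrombomodulin, rose by 1.89 (SE 0.48, adjusted p = 0.00640), from means of 1.39 to 5.78 TPM in set 2 and of 1.51 to 14.8 TPM in set 1, where it was also called (2.53, adjusted p = 0.0339). Serpina5, the protein C inhibitor, was called lower in set 1 at means of 5.40 and 0.439 TPM (adjusted p = 0.0302). Of 9 fibrinolysis genes, 7 could be tested over both sets, and Serpinf2 (alpha 2-antiplasmin, -1.17, adjusted p = 0.0242) fell while Plaur (the urokinase receptor, 1.70, adjusted p = 0.0344) rose. Scaled to hepatocyte markers, Proz remained lower (-1.08, adjusted p = 0.0188) and Serping1, Proc and Serpinf2 lost their calls (adjusted p = 0.0560, 0.369 and 0.179). Of the 5 other clotting factors and cofactors (F3, F8, F13a1, F13b and Vwf), 3 could be tested over both sets and none passed.

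**Figure D5:**
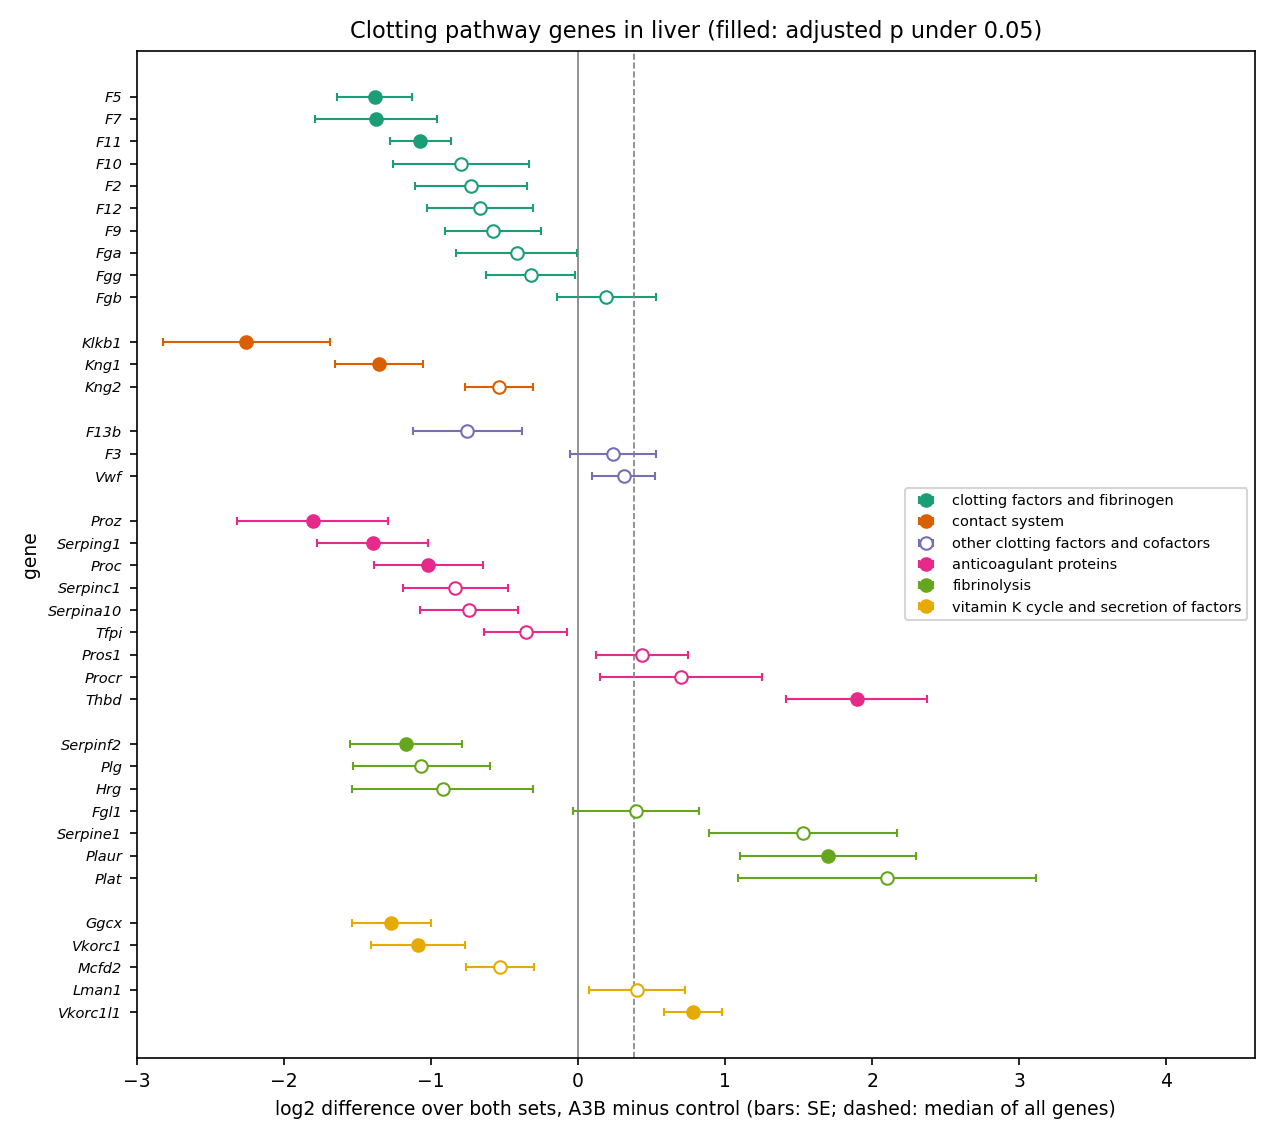
Log2 difference over both sets for the 10 transcripts and for the other clotting genes tested, grouped by role, with bars of 1 standard error, filled points at an adjusted p under 0.05 and a dashed line at the median of all genes, 0.38. Filled points on the lower side come from clotting factors, contact system, anticoagulant, fibrinolysis and vitamin K genes, and those on the higher side are Thbd, Plaur and Vkorc1l1.

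Acute phase genes, the class that fibrinogen belongs to, moved in both directions. Of 14 other acute phase genes, Lcn2 (lipocalin 2) was called higher in both sets, at means of 1670 against 9.01 TPM in set 2 (log2 fold change 7.21, adjusted p = 0.00525, edgeR), and over both sets Lcn2, Orm2 (2.72), Saa3 (1.70) and Hp (1.37) rose while Crp fell by 2.14, by limma. The 4 of 14 called higher stand beside 30.6% of all genes in the same fit, so the count is near the background. The median over the 14 was 0.91 over both sets against 0.19, -0.42 and -0.32 for Fgb, Fga and Fgg, with no test of the difference. Of 13 hepatocyte transcription factors, Cebpa (-1.27, adjusted p = 0.0263) and Foxa3 (-1.11, adjusted p = 0.0314) fell over both sets and Cebpb (0.83, adjusted p = 0.0202), Stat3 (1.02, adjusted p = 0.0299) and Nr5a2 (0.88, adjusted p = 0.0453) rose, by limma. These 2 lower and 3 higher of 13 stand beside 8.42% of all genes called lower and 30.6% called higher in that fit. Scaled to hepatocyte markers, Cebpa and Foxa3 were no longer called (adjusted p = 0.156 and 0.392). Centred on the median of each liver, Cebpb, Stat3, Nr5a2 and Hp were no longer called (adjusted p = 0.3001, 0.130, 0.221 and 0.0925), nor was Plaur (0.0900).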

How the data were processed

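RNA was sequenced from TruSeq Stranded libraries of total RNA. For set 2 the authors deposited an estimated count and a TPM per transcript from kallisto against mm10. For set 1 the authors deposited TPM per gene from a read-count matrix (GenomicAlignments, GenomicFeatures), and its column names show that duplicate reads had been removed. Levels of the 2 sets are therefore compared only within a set. With GENCODE M21, 116640 of 119414 transcripts were assigned to 35858 symbols, with the counts of a gene's transcripts added up and then rounded. Set 2 was tested with edgeR 4.0.16 (filterByExpr, TMM, robust quasi-likelihood), where the 2774 unmatched transcripts were left out. Set 1 and both sets together were tested with limma 3.58.1 (trend, robust) on log2(TPM + 1), for genes averaging 1 TPM or more (in each set, for the joint fit), and such differences understate the change of low genes. In set 1, 4 rows with repeated names were left out. P-values were adjusted by Benjamini-Hochberg over all genes tested, with a threshold of 0.05. DESeq2 1.42.0, other scalings, filters and pseudocounts, Y-chromosome expression as a covariate and leaving out each liver were alternatives, and leaving out A3B livers 48 and 49 and scaling to hepatocyte markers were added after seeing the data. The fits were tested on simulated data. The 10 genes and the gene lists were chosen with earlier results of these data known. All 10 genes are named, and of the clotting, acute phase and transcription factor lists those past the threshold in a set or over both sets, or the 3 with the smallest p where more pass, with further genes of these lists and the cell markers chosen after their values were seen. All 10 genes matched 1 entry of the RefSeq promoter table.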

Additional observations from a re-analysis of the deposited data

Results flagged for a closer look

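Among the 6 A3B livers of set 2, 13 levels and ratios and all 16 transcript shares of the genes with more than 1 annotated transcript were searched for a single liver far from the others. None of the 13 and 10 of the 16 had one, where chance flags about 1 in 20. Shares of a gene sum to its whole, so the 10 are not independent and come from 4 genes. A3B liver 48 stood apart in F10, F12 and Fga. Its F10 shares were 22.8% for the 1903-base transcript, 54.7% for the 1449-base, 22.1% for the 2503-base and 0.461% for the 1395-base one. Its F12 shares were 41.3% for the 1960-base and 58.7% for the 478-base transcript, and its Fga shares were 73.5% for the 5-exon and 26.5% for the 6-exon transcript. A3B liver 125 stood apart in F11, with 64.4% for the 2240-base and 35.6% for the 614-base transcript. A3B liver 48 also had the highest mitochondrial share (29.6%) and the highest share of retained-intron transcripts (3.56%), and their part in these values was not tested.

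Outside the liver, several of the clotting transcripts were above the control level in A3B tissue. In pancreas, the mean over 6 A3B samples was 22.9 TPM for Fga, 18.2 TPM for Fgg and 8.14 TPM for Fgb, where the 2 controls had at most 1.69, 1.90 and 1.33 TPM. F2 had a mean of 8.29 TPM in A3B pancreas, F10 of 4.09 TPM, F11 of 1.88 TPM and F7 of 1.61 TPM, against at most 0.962, 0.224, 0.0339 and 0.0415 TPM in the controls. Of the 10 transcripts, 9 had every A3B pancreas above both controls, F12 being the exception. Among genes that averaged 1 TPM or more in pancreas, the same was true of 7 of 8 clotting transcripts and of 82% of all 13590 genes. No comparison is drawn from this, since all 10 clotting transcripts averaged under 1 TPM in control pancreas. Alb, the main hepatocyte marker, was at 10.4 to 634 TPM in A3B pancreas and at 1.20 and 32.7 TPM in the controls, and the top 10 genes of each sample held 47.8% and 47.0% of TPM in controls against 17.8% to 31.9% in A3B pancreas. Their part in these values was not tested. In lung, F5 had a mean of 2.65 TPM in A3B samples (2.52 to 2.84 TPM) against 0.429 to 2.04 TPM in controls. It was the only 1 of the 10 with every A3B lung above every control. Among genes that averaged 1 TPM or more in lung, this held for 1 of 8 clotting transcripts and for 23.3% of all 13651 genes. No test was made of these values.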

How the results depend on the processing

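The set 2 count of 2 lower transcripts was 2 with DESeq2, with counts scaled by their totals, without a filter, with limma on log2(TPM + 1) and with Y-chromosome expression as a covariate, 1 per transcript, 3 without A3B livers 48 and 49, and 0 to 2 when each liver was left out in turn. The count over both sets was 6 after centring on the median of each liver and 0, with 1 higher, after scaling to hepatocyte markers. It was 2 to 3 when each liver was left out in turn. In set 1 the count was 0 under every alternative run. In set 2 the F5 and F11 fold changes ran from -2.34 to -1.68 and from -1.83 to -1.15, and none of F5, F7 and F11 changed sign under any alternative of its liver comparisons. Over all genes, 418 lower and 218 higher calls in set 2 became 1061 and 1290 with DESeq2, 193 and 549 with limma and 1616 and 1466 without A3B livers 48 and 49, and ran from 64 to 944 and from 3 to 655 with single livers left out. In set 1, 214 and 699 became 15 and 39 without a filter and ran from 0 to 517 and from 1 to 1370 with single livers left out. Leaving out A3B livers 48 and 49 together and the hepatocyte scaling were chosen after seeing the data. No paired analysis was possible because the A3B and control livers of a set share no mouse number. Precision in set 2 is limited by its 2 controls, with a biological coefficient of variation of 0.570.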

Other observations

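In lung, F7 was at 40.9 to 47.2 TPM in all 6 samples of both groups, while Fga ran from 0.417 to 186 TPM and Alb from 0.331 to 245 TPM in the same samples, with the high values of both in control lung 88 and A3B lungs 70 and 74. In control liver, Fga had the highest mean level of the 10 transcripts and F9 the lowest in both sets, and F5, F7, F9 and F11 lay within 64.9 to 113 TPM in set 2.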
